A study of Arabidopsis thaliana with 6 samples.

Results

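Berberine bridge enzyme-like oxidases were followed in the root meristem of Arabidopsis thaliana through 10 genes, out of 30424 in the count tables, chosen by gene identifier. They were 5 genes of a cluster on chromosome 1 from AT1G26380 to AT1G26420, 3 genes of a second cluster on that chromosome from AT1G30700 to AT1G30730, and AT4G20830 and AT4G20860 on chromosome 4. The list was drawn up with the difference between RGF1 and mock treatment in these same libraries known, so the differences given for the members describe the data and are not a test. The 6 libraries were RNA-seq libraries of the dissected meristematic zone, 3 after 1 h in liquid medium with water (Mock) and 3 after 1 h with 100 nM of the peptide RGF1 (Root meristem growth factor 1). All seedlings were Col-0 plants homozygous for an introduced HYP2-GFP transgene, 6 days old, and the GFP signal guided the dissection of the 20 root sections behind each RNA sample. Whether the 3 samples of a treatment were grown on separate plates or days is not in the labels, so the p-values reflect sample-to-sample spread that could be technical in part.

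Berberine bridge enzyme-like proteins are oxidases that carry a covalently bound FAD cofactor, mostly enter the secretory pathway, and pass electrons from their substrate to oxygen or another acceptor. In Arabidopsis, different members oxidise cell-wall oligosaccharides, monolignols or indolic defence compounds, and several are known as genes induced by pathogens and wounding. AT1G26380, known as FOX1, acts in the synthesis of cyanogenic indole defence compounds. AT4G20830, known as OGOX1, oxidises oligogalacturonides, the fragments released from pectin, and releases hydrogen peroxide. AT4G20860, known as CELLOX, oxidises cellodextrins, the fragments of cellulose. The 4 neighbours of AT1G26380 are known as FOX2 to FOX5.

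The genes share the sequence around the histidine that binds FAD in this family. All 10 members, and all 27 genes that the TAIR10.1 annotation names as berberine family proteins, had a histidine codon at that aligned position. The codons for arginine, any residue, 2 glycines and that histidine were found in 9 members and in 24 of the 27 genes. AT4G20860 was the exception among the members. The coding windows of 36 bases are shown for 5 members to compare the gene of the first cluster that was detected after RGF1 with an undetected neighbour and with the other groups, and the capitals mark the histidine codon. They lie at chr1:9128167-9128202 (minus strand), chr1:9131415-9131450 (minus strand), chr1:10901157-10901192 (plus strand), chr4:11155822-11155857 (plus strand) and chr4:11173044-11173079 (plus strand) of TAIR10.1, read from the RefSeq genome in the order listed.
AT1G26380: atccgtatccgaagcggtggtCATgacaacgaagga
AT1G26390: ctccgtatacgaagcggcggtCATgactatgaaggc
AT1G30730: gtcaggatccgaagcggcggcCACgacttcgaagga
AT4G20830: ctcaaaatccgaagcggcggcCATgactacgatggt
AT4G20860: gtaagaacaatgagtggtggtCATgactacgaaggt

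The members formed a closely related cluster and several distant branches. Coding sequences of the 5 genes from AT1G26380 to AT1G26420 were 85.3% to 87.2% identical over the aligned bases in their 10 pairs. AT1G30720 and AT1G30730 were 84.8% identical, whereas AT1G30700 was closest to AT1G30710, at 59.9%. AT4G20830 was closest to its neighbour AT4G20840, known as OGOX2, at 85.6%, and AT4G20860 to AT5G44360 on chromosome 5, at 73.0%. Between the 3 member groups the identity was 50.4% to 59.3%. No member had a copy at 95% identity over 100 bases or more among the annotated transcripts. The share of 50-base words that a member's transcript had in common with any other gene was at most 1.86%. How reads with several matches were counted is not stated in the labels or processing notes.

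**Figure D1:**
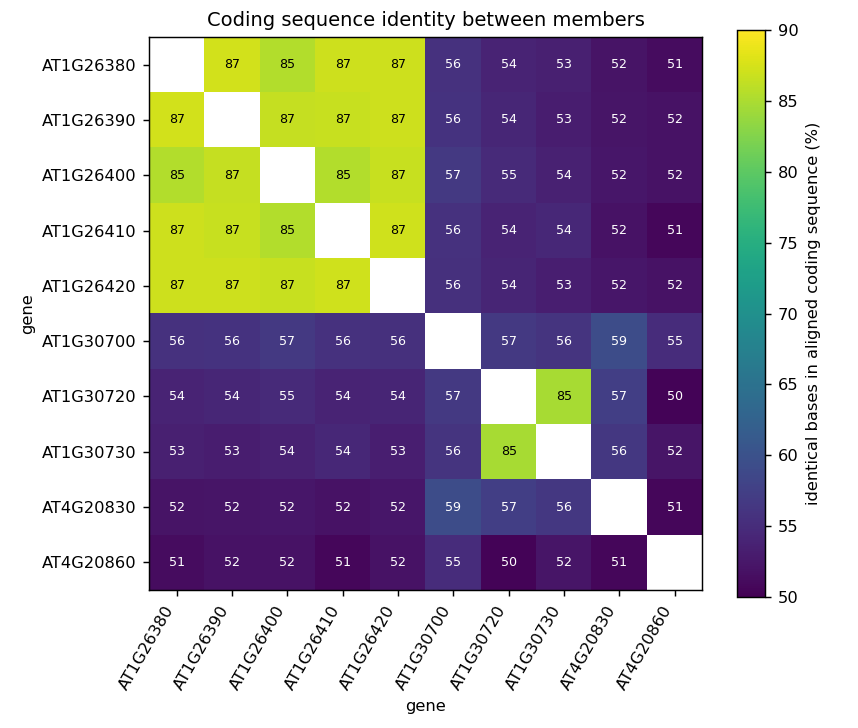
Identity of the coding sequences between the 10 members, in percent of aligned bases, with genes on both axes and the diagonal left blank. The block of AT1G26380 to AT1G26420 holds values of 85.3% to 87.2%, and the pair AT1G30720 and AT1G30730 stands at 84.8%.

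Of the 10 members, 6 had enough counts to be tested and 4 did not. All 3 Mock libraries held 0 counts of AT1G26380, which passed the filter on low counts through its RGF1 counts alone. AT1G30700, with Mock counts of 32, 2 and 3, also passed it through its RGF1 libraries. The p-values and calls of these genes below are description only. With edgeR's quasi-likelihood test at an adjusted p below 0.05, with the adjustment made over 16737 tested genes, 0 of the 6 were called. Of all tested genes 0.466% were called higher and 0.0299% lower. At an unadjusted p below 0.05 the number was 4, where the share of tested genes that were higher was 4.26%. DESeq2 called AT1G26380, AT1G30700, AT1G30730 and AT4G20830 higher, with 1.23% of its tested genes called higher. limma voom, with 0.388% called higher, and edgeR with the replicate number as a block, with 1.24%, called AT1G30730 and AT4G20830. The edgeR adjusted p with the block was 0.00343 for AT1G30730 and 0.000605 for AT4G20830. It was 0.0614 and 0.0512 in the reported fit, which does not use the pairing by replicate number. With no filter on low counts edgeR called the same 4 genes as DESeq2, with 0.800% of genes called higher. AT1G30730 and AT4G20830 were also called without Mock replicate 1 (0.664% called higher) and AT1G30730 without Mock replicate 3 (0.374%). Leaving out any other library gave 0 member calls, with 0.287% of genes called higher without Mock replicate 2 and 0.228%, 0.345% and 0.367% without RGF1 replicates 1, 2 and 3. In 4 of the 6 tested members every RGF1 library lay above every Mock library, as it did in 7.30% of all tested genes, and in 0 every RGF1 library lay below, as in 6.18%. The log2 fold changes of the 6 had a median of 2.20, also with AT1G26380 at its lower bound, against -0.01 over all tested genes. These counts and the median come from the contrast by which the members were listed.

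**Figure D2:**
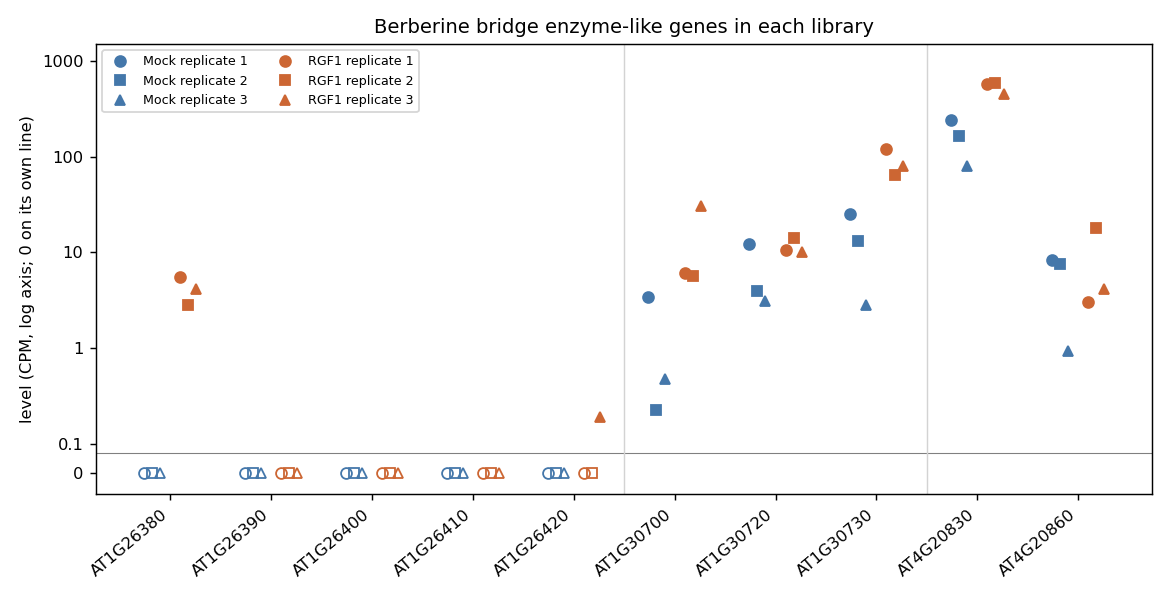
Level of each member in each library in CPM (library-size-normalised counts, log axis, with 0 on a line of its own), with Mock in blue, RGF1 in orange and symbols for replicate numbers. AT1G26380 has 0 in Mock and 2.79 to 5.52 CPM after RGF1, its 4 neighbours stay at or next to 0, and AT4G20830 is the most abundant member in all 6 libraries.

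In the cluster on chromosome 1 from 9126737 to 9143336 (TAIR10.1), AT1G26380 was the single member with more than 1 count in the 6 libraries. AT1G26380 (9126737 to 9128568, minus strand, 1 exon) had 0, 0 and 0 counts in Mock replicates 1 to 3 and 53, 19 and 22 counts in RGF1 replicates 1 to 3. In CPM, the count scaled to library size by TMM, the RGF1 values were 5.52, 2.79 and 4.14, with a mean of 4.15 ± 1.37 (SD, n = 3). A floor of 3 counts per library stood at 0.321, 0.336 and 0.470 CPM in the Mock libraries, so that the gene was at least 11.0-fold higher after RGF1. The RGF1 libraries did not overlap the Mock libraries, and all were above that floor.

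The other 4 genes of this cluster were not detected at this depth. AT1G26390 (9130013 to 9131779), AT1G26400 (9133291 to 9134874) and AT1G26410 (9138604 to 9140439) had 0 counts in the 6 libraries. AT1G26420 (9141519 to 9143336) had 1 count, in RGF1 replicate 3. All lie on the minus strand, like AT1G26380, and have 1 exon each. The floor of 3 counts was 0.313 to 0.565 CPM in the RGF1 libraries, and 0 counts allow a level of up to about that range. The summed level of the cluster therefore followed AT1G26380, at 0 in Mock and 4.21 ± 1.37 CPM after RGF1 (n = 3).

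**Figure D3:**
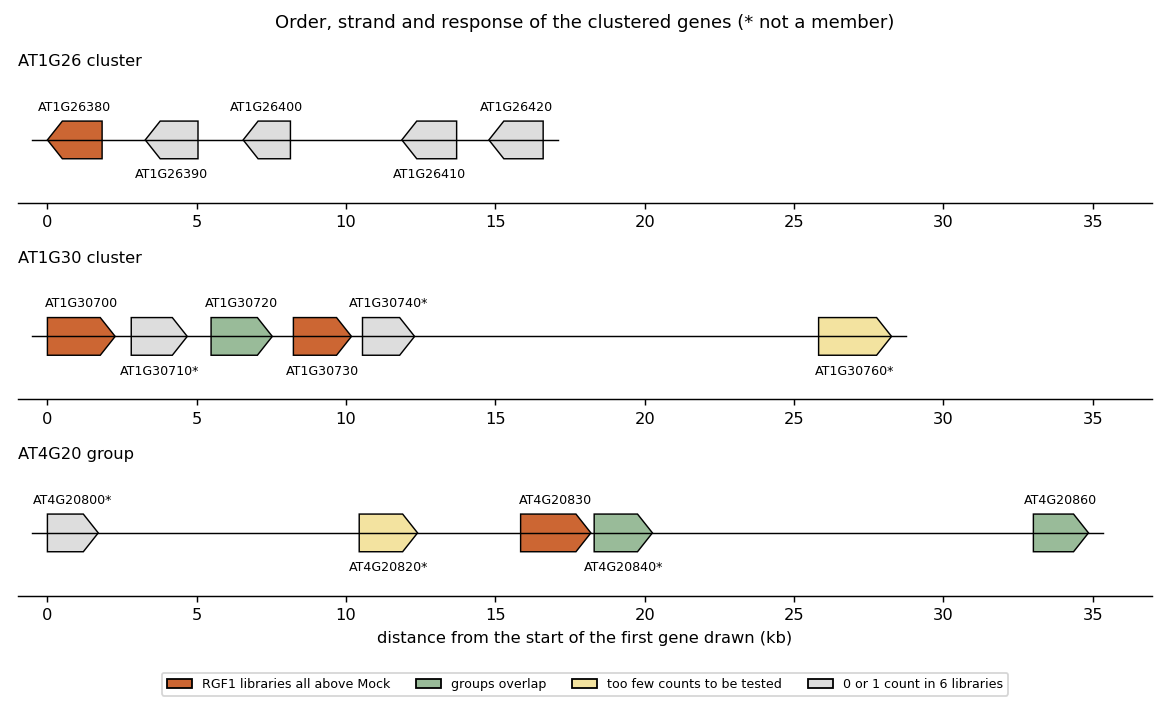
Gene order in the 3 regions, drawn to scale as distance in kb from the first gene drawn, with arrows for strand and colour for the pattern over the libraries (asterisks mark family genes that are not members). AT1G26380 is coloured at one end of a row of genes with 0 or 1 count, and in the second row AT1G30710, with 0 counts, lies between AT1G30700 and AT1G30720.

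The second cluster, on chromosome 1 from 10892445 to 10902626, was expressed in the mock-treated meristem and differed gene by gene. AT1G30730 (10900681 to 10902626, plus strand, 1 exon) had 24.9, 13.0 and 2.82 CPM in Mock and 120, 64.1 and 79.5 CPM after RGF1. Its lowest RGF1 library was above its highest Mock library, and the log2 fold change was 2.68 ± 0.56 (SE). The estimate was 2.21 when Mock replicate 3 was left out and 3.45 when Mock replicate 1 was. AT1G30700 (10892445 to 10894714, plus strand, 2 exons) had 3.43, 0.224 and 0.470 CPM in Mock and 6.04, 5.73 and 30.5 CPM after RGF1. Mock replicate 1 was high within its group and RGF1 replicate 3 high within the other. The log2 fold change of AT1G30700, 3.31 ± 1.00 (SE), was 2.07 without RGF1 replicate 3 and 5.32 without Mock replicate 1.

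AT1G30720 (10897925 to 10899975, plus strand, 1 exon) had 12.3, 3.92 and 3.14 CPM in Mock and 10.6, 14.2 and 9.98 CPM after RGF1. The groups overlapped, since Mock replicate 1 was above 2 of the RGF1 libraries. The fitted difference on the log2 scale, 0.84 ± 0.62 (SE), became 1.71 without Mock replicate 1 and 0.51 without Mock replicate 3. AT1G30710, which lies inside the cluster but is not a member, had 0 counts in the 6 libraries, as did AT1G30740 next to AT1G30730. Summed over its 3 members, the cluster stood at 21.4 ± 17.5 CPM in Mock and 114 ± 26.8 CPM after RGF1 (n = 3), a ratio of 5.31. This ratio was 9.65 without Mock replicate 1 and 3.92 without Mock replicate 3.

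On chromosome 4, AT4G20830 (11155453 to 11157806, plus strand, 2 exons) was the most abundant member. It had 244, 163 and 80.4 CPM in Mock and 572, 585 and 449 CPM after RGF1. The groups did not overlap, and the log2 fold change was 1.72 ± 0.35 (SE). Leaving out Mock replicate 3 gave 1.39 and leaving out Mock replicate 1 gave 2.14. The gene overlaps AT4G20835 on the opposite strand over 1570 bases. AT4G20835 was listed at 0 counts in the 6 libraries, and whether the counting used strand is not given in the sources used here.

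AT4G20860 (11172622 to 11174467, plus strand, 1 exon) had 8.25, 7.61 and 0.941 CPM in Mock and 3.02, 17.8 and 4.14 CPM after RGF1. The groups overlapped, and RGF1 replicate 2 alone was above the Mock range. The log2 fold change of 0.56 ± 0.86 (SE) turned to -0.66 without RGF1 replicate 2. AT4G20860 overlaps AT4G20870 on the opposite strand over 18 bases. Together AT4G20830 and AT4G20860 stood at 168 ± 85.4 CPM in Mock and 544 ± 79.4 CPM after RGF1 (n = 3), a ratio of 3.24 that was 4.32 without Mock replicate 1 and 2.56 without Mock replicate 3.

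The replicate numbers were taken to pair the libraries across treatments, though the labels do not say that same-numbered samples were handled together. The ratio within a number varied more between members than the group means show. For AT4G20830 the RGF1 level was 2.35, 3.58 and 5.58 times the Mock level in replicates 1 to 3. For AT1G30730 the ratios were 4.82, 4.94 and 28.2, and for AT1G30700 they were 1.76, 25.6 and 64.9. These 3 genes were above 1 in every pair. AT1G30720, with 0.862, 3.63 and 3.18, and AT4G20860, with 0.366, 2.33 and 4.40, were below 1 in replicate 1 and above it in the other pairs. In each of the 5 genes replicate 1 had the lowest ratio.

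**Figure D4:**
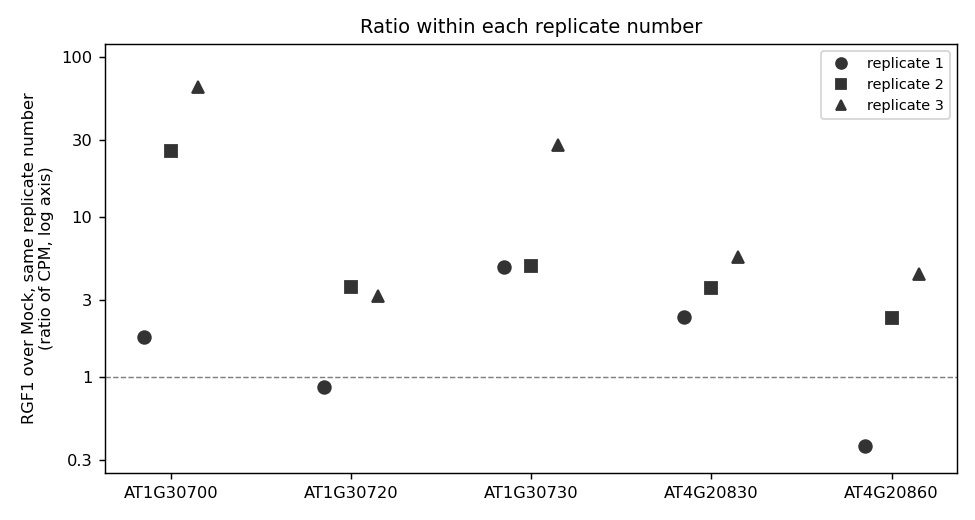
Ratio of the RGF1 to the Mock level in CPM within each replicate number (log axis, dashed line at 1) for the 5 members with Mock counts. AT1G30700, AT1G30730 and AT4G20830 lie above 1 in the 3 pairs, and replicate 1 gives the lowest ratio for each gene, 0.366 for AT4G20860.

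Per kb of exon, AT4G20830 stood far above the other members. In Mock its level was 73.8 ± 37.1 RPKM (CPM per kb of exon; SD, n = 3), followed by AT1G30730 at 6.97 ± 5.67, AT1G30720 at 3.15 ± 2.48, AT4G20860 at 3.03 ± 2.19 and AT1G30700 at 0.674 ± 0.875 RPKM. The lowest Mock library of AT4G20830, at 36.6 RPKM, was above the highest of AT1G30730, at 12.8 RPKM. Neighbours further down that order overlapped, from AT1G30730 to AT1G30700. After RGF1, AT4G20830 reached 243 ± 34.0 and AT1G30730 45.1 ± 14.8 RPKM, and the libraries of these 2 genes overlapped neither each other nor the remaining members. AT1G30700 at 6.91 ± 6.97, AT1G30720 at 5.66 ± 1.12, AT4G20860 at 4.50 ± 4.45 and AT1G26380 at 2.27 ± 0.746 RPKM overlapped with their neighbours in that order. AT4G20830 made up 27.7% to 44.6% of the per-length level of the whole family in the Mock libraries and 44.3% to 57.0% in the RGF1 libraries. In 4 of the 6 libraries the share lay between 43.7% and 44.8%, with Mock replicate 1 below and RGF1 replicate 3 above.

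**Figure D5:**
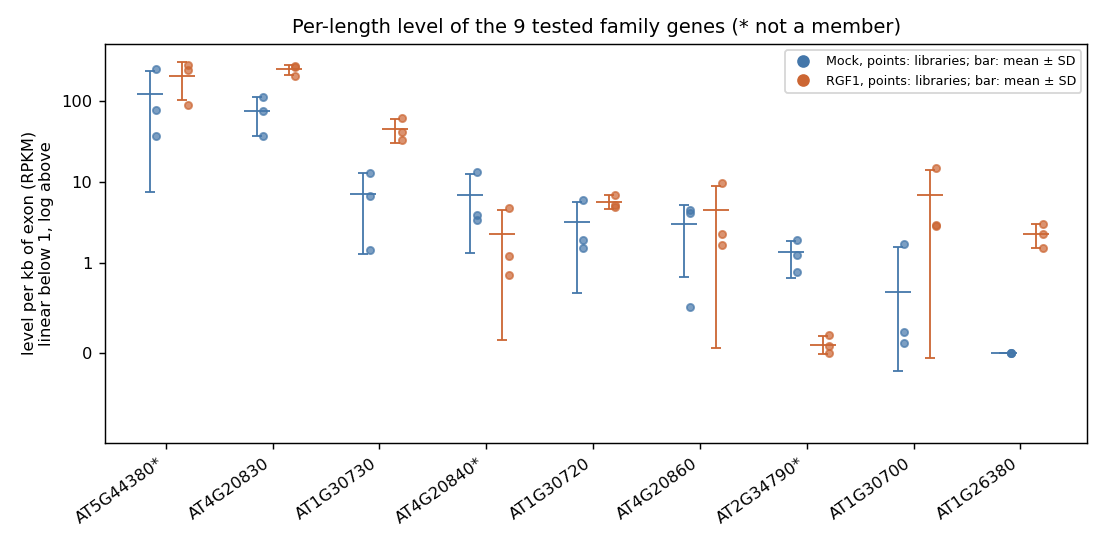
Per-length level in RPKM (linear below 1, log above) of the 9 family genes that were tested, ordered by their Mock mean, with points for libraries and bars for mean ± SD over 3 libraries. Among the members AT4G20830 and then AT1G30730 stand highest in both groups, and AT1G26380 is at 0 in Mock.

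Outside the members, 17 family genes remained: 7 without a count in any library, 7 with too few counts to be tested and 3 that were tested. Of these 3, 0 were called by edgeR, DESeq2, limma voom or with the replicate block, and 1, AT2G34790, had an unadjusted edgeR p below 0.05 and was lower, as were 3.50% of tested genes. AT5G44380 had the highest Mock level per length of the family, 120 ± 113 RPKM (n = 3), which overlapped that of AT4G20830. Its groups overlapped, with 486, 148 and 71.5 CPM in Mock and 466, 532 and 171 CPM after RGF1. AT2G34790, annotated as MEE23 and known for oxidising monolignols, had 22, 33 and 11 counts in Mock and 0, 1 and 2 after RGF1, with a log2 fold change of -3.94 ± 1.27 (SE; edgeR adjusted p = 0.344). AT2G34790 passed the filter on low counts through its Mock counts alone. AT4G20840 had 25.6, 6.49 and 7.68 CPM in Mock and 2.40, 9.25 and 1.70 CPM after RGF1, which overlapped (edgeR adjusted p = 0.659). It is the closest relative of AT4G20830 in sequence, begins directly downstream of it, and had a log2 fold change of -1.57 ± 0.76 (SE) against 1.72 ± 0.35 (SE) for AT4G20830. The value for AT4G20840 was -0.67 without Mock replicate 1 and -2.68 without RGF1 replicate 2.

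The genes flanking the clusters were few. Of the 3 genes listed on each side of the 3 family regions, 11 of 18 were tested, with log2 fold changes from -0.81 to 1.35. edgeR called 0 of them, as it did of the members, where 0.466% of all tested genes were called higher and 0.0299% lower. At these shares 0 calls among 11 genes would be usual, so the count cannot show whether the flanking genes differed.

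The windows of 250 bases upstream of the annotated starts were searched on both strands for TTGAC, the core of the W-box that WRKY factors bind. It was found in 8 of the 10 members and in 44.9% of 27443 such windows of protein-coding genes in the count tables. AT1G26380 held 4 matches, and so did AT1G26420, which had 1 count, and AT1G30720, whose groups overlapped. Windows with 4 or more made up 0.721% of the 27443. AT1G30730 and AT1G26400 held 0. Since 4 of the 10 members had too few counts for the fit, a relation between matches and the difference between treatments was not tested. The TGA core TGACG, which overlaps the W-box core where both are read as TTGACG, was found in 4 members and 18.6% of windows. The GCC box GCCGCC (1.87% of windows) and the G-box CACGTG (6.49%) were found in 0 members. A match describes the letters and is not a binding site. The windows of AT1G26380 (chr1:9128569-9128818, minus strand), AT1G26420 (chr1:9143337-9143586, minus strand) and AT1G30730 (chr1:10900431-10900680, plus strand) of TAIR10.1 are shown to compare 2 genes that were higher after RGF1, one with 4 matches and one with 0, with a copy that had 1 count and as many matches as the first, with the W-box cores in capitals.
AT1G26380: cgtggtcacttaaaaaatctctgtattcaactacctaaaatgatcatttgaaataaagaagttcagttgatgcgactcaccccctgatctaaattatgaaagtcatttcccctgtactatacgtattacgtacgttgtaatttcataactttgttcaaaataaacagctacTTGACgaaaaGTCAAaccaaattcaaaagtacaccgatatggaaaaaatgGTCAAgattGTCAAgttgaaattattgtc
AT1G26420: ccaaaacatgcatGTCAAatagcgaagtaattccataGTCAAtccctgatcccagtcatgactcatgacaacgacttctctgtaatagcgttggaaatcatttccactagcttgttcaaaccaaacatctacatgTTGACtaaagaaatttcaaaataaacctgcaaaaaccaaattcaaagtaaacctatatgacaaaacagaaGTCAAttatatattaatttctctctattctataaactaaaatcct
AT1G30730: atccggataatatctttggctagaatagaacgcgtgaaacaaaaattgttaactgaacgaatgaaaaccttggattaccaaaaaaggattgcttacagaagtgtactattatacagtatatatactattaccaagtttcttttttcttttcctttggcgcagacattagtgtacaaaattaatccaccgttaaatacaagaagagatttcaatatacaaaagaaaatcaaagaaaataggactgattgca

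Among the listed genes of indolic defence metabolism, where AT1G26380 acts in the synthesis of cyanogenic compounds, 8 of 11 were tested. The median over these 8 was 1.69 on the log2 scale, against -0.01 over all tested genes. This median is description only, since it includes genes, named below, that passed the filter on low counts through their RGF1 counts alone. The list's median was 2.73 without Mock replicate 1 and 1.36 without Mock replicate 3. edgeR called 3 higher and 0 lower, where 0.466% of all tested genes were called higher and 0.0299% lower. CYP71A12 (AT2G30750), which makes the indole cyanohydrin that AT1G26380 oxidises, also had 0 counts in the Mock libraries and was at least 36.9-fold higher after RGF1 (edgeR adjusted p = 0.00735). Like AT1G26380, CYP71A12 passed the filter on low counts through its RGF1 counts alone, and so did GSTF6 and PAD3. The p-values and calls of these genes, and the list's median that includes them, are limited by that. For CYP71A12, RGF1 replicate 1, with 27.2 CPM against 6.31 and 8.10 CPM in replicates 2 and 3, was high. Without that library the bound was 19.2-fold and the call was lost. GSTF6 (AT1G02930), a glutathione S-transferase, rose from 0.373 ± 0.646 to 98.7 ± 38.9 CPM (n = 3; edgeR adjusted p = 0.000407), with Mock counts of 0, 10 and 0, so that its Mock level rests on replicate 2. GGP1 (AT4G30530), a glutamyl peptidase, rose from 75.2 ± 34.3 to 254 ± 45.1 CPM (n = 3; edgeR adjusted p = 0.0247). CYP71A12 and GSTF6 have related tandem copies, and whether these share reads was not tested. PAD3, the last enzyme of camalexin synthesis, had 3 counts summed over Mock and 141 summed over RGF1 (edgeR adjusted p = 0.0835). CYP82C2, which acts after AT1G26380 in the synthesis of cyanogenic indole compounds, and CYP71A13 had 0 counts in the 6 libraries. CYP79B2 and CYP79B3, which make the indole aldoxime at the entry of indolic defence metabolism, had log2 fold changes of 0.03 ± 0.42 (SE) and 0.55 ± 0.83 (SE), and their groups overlapped. With the replicate block, where 1.24% of all tested genes were called higher, 5 of the list were called. They were the 3 above and PAD3 and WRKY33, a transcription factor gene. GSTF6 was called in each of the 6 fits that left out 1 library, CYP71A12 in 5 and GGP1 in 2. GGP1 lost its call without Mock replicate 1, Mock replicate 3, RGF1 replicate 1 or RGF1 replicate 2, and CYP71A12 was not called by limma voom.

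Of 20 genes that respond to damage and microbial patterns, or act in that response, 11 were tested. edgeR called 0, where 0.466% of all tested genes were called higher and 0.0299% lower. At an unadjusted edgeR p below 0.05 there were 5, all higher, where 4.26% of tested genes were higher. DESeq2 called 4 (1.23% of its tested genes called higher), limma voom 0 (0.388%) and edgeR with the replicate block 4 (1.24%). The 4 genes called with the block were WRKY40, WRKY53, RBOHD and PGIP1. RBOHD, an oxidase that produces superoxide outside the cell, differed by 1.32 ± 0.30 (SE) on the log2 scale (edgeR adjusted p = 0.0839). PGIP1, an inhibitor of pectin-degrading polygalacturonases, differed by 2.05 ± 0.60 (SE; edgeR adjusted p = 0.258). For the transcription factor genes the differences were 1.88 ± 0.53 (SE; edgeR adjusted p = 0.226) in WRKY53 and 1.20 ± 0.34 (SE; edgeR adjusted p = 0.228) in WRKY40. The median over the tested genes of the list was 1.20 on the log2 scale. PRXCA, at -1.11 ± 1.69 (SE), and PHI-1, at -0.02 ± 0.49 (SE), had negative values, and their groups overlapped. Among the genes with too few counts to be tested, WAK2 had 51 counts summed over Mock and 4 over RGF1. FRK1 had 14 and 1, PR5 11 and 0, and PGIP2 1 and 0. PRXCB, with 5 and 19, YLS9, with 2 and 8, and WAK1, with 0 and 4, went the other way. PR1 and BGL2 had 0 counts in the 6 libraries.

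The profile of AT1G26380 over the 6 libraries was compared with that of 14660 genes outside the family, as the Euclidean distance between mean-centred log2(CPM + 1) values. These were tested genes with at least 5 CPM in the higher group. AT1G26380 itself had a mean of 4.15 CPM after RGF1, so genes at its own level or below were left out. Adding 1 shrinks the differences of genes as low as AT1G26380, so the distance depends on level. The 5 nearest genes were AT1G03230, an aspartyl protease family gene, at 0.35, AT1G78850, a mannose-binding lectin gene, at 0.51, PP2-B14 at 0.64, PROPEP2, an elicitor peptide precursor, at 0.69 and SIP1, a raffinose synthase family gene, at 0.73. Of these, PP2-B14 was nearest in level, with 6 counts in the Mock libraries and 5.98 ± 2.28 CPM after RGF1 (n = 3). AT1G03230 was expressed in both groups, at 85.8 ± 3.94 CPM in Mock and 410 ± 51.9 CPM after RGF1 (n = 3). The likeness rests on 6 libraries of 2 groups and holds on the log2(CPM + 1) scale, not for the fold.

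Total counts ranged from 5421243 to 9495012 per library, and no 2 libraries agreed within sampling noise. Of the 7 meristem markers 6 had counts in every library, and WOX5, a gene of the quiescent centre, had 2 counts in all. Markers of differentiated root hairs and endodermis, 6 genes that mark cells outside the meristem, summed to 54.5, 30.3 and 8.62 CPM in Mock replicates 1 to 3 and to 12.3, 36.1 and 29.4 CPM in RGF1 replicates 1 to 3. Their order in the Mock libraries was that of AT1G30720, AT1G30730, AT4G20830 and AT4G20860, highest in replicate 1 and lowest in replicate 3. AT1G30700 was highest in Mock replicate 1 and lowest in Mock replicate 2. That was the order of the 3 green tissue markers, which summed to 718, 180 and 364 CPM in Mock replicates 1 to 3. The green tissue markers summed to 265, 35.2 and 423 CPM in RGF1 replicates 1 to 3, again in the order of AT1G30700. In the RGF1 libraries the root hair and endodermis markers were highest in replicate 2 and lowest in replicate 1, an order that only AT4G20860 had. There AT1G30720 and AT4G20830 were lowest in replicate 3, and AT1G26380, AT1G30700 and AT1G30730 were lowest in replicate 2. The part of these markers' cells in the members' values was not tested. The 3 xylem markers summed to 9.54 to 11.6 CPM in Mock and 1.70 to 5.14 CPM after RGF1, the 7 meristem markers to 235 to 265 and 377 to 478 CPM, the 3 root cap markers to 3.92 to 19.1 and 2.40 to 18.3 CPM, and the 3 green tissue markers to 180 to 718 and 35.2 to 423 CPM. Without AIL6, the other 6 meristem markers summed to 116 to 129 CPM in Mock and 108 to 188 CPM after RGF1, which overlapped. Of these markers 0 were at 0 in all libraries. edgeR called 0 of them, where 0.466% of all tested genes were called higher and 0.0299% lower. At these shares 0 calls among so few genes would be usual, so the count cannot show whether the tissue of the groups differed. In such tissue samples, fewer cells that express a gene and less RNA of it per cell cannot be told apart.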

How the data were processed

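Each of the 6 libraries had a deposited table of read counts per gene, whole numbers that had not been normalised, as the values show. TAIR10 is the build, and TopHat2 2.1.1, HTSeq and DESeq2 are the tools, listed in the submitters' processing notes, which give no roles or settings here. Per the labels' protocols, 50 ng of total RNA per sample was amplified to cDNA, so reads are not independent molecules, and floors of 3 counts cover counting error only. Of 30424 genes, 8412 had 0 counts in all libraries and 0 rows named no gene.

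The quasi-likelihood F test of edgeR 4.0.16 was run in R 4.3.3 on TMM-scaled counts of the 16737 genes that filterByExpr kept, with Benjamini-Hochberg adjustment over them and calls at an adjusted p under 0.05. Standard errors were derived from the F statistic. The test was checked on simulated counts. Alternatives were RLE and total-count scaling, DESeq2 1.42.0, limma 3.58.1 voom, 2 other filters, a replicate block and leaving out each library. The bound of CYP71A12 without single libraries and the meristem sum without AIL6 were added after seeing the data. Against 0 Mock counts, a fold is a lower bound on the mean floor of 3 counts per Mock library. RPKM is CPM per kb of exon.

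Same-numbered libraries deviated together from their group means (correlations of 0.177, 0.214 and 0.299 over tested genes, against -0.166 to -0.0433 for differing numbers), so the numbers were taken as pairs. The reported fit held no replicate block, so its calls and adjusted p-values leave this pairing out. The fit with the block uses it. The pairing comes from the replicate numbers in the titles and this check, and the labels do not state it. Since deviations within a group sum to 0, positive values for the same numbers imply negative values among the differing ones.

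Gene models and sequences came from the TAIR10.1 RefSeq genome, which matched 30214 identifiers, including the members. Coding sequences were aligned with MAFFT 7.526 and copies searched with BLAST 2.17.0. Family names came from its product names. Genes named were the members, AT1G30710, the family genes outside them with the highest Mock level per length (up to 3), up to 4 genes per list with the smallest p, and the 5 nearest profiles among genes with at least 5 CPM in the higher group. CYP82C2, CYP71A13, CYP79B2, CYP79B3, MYB51, WRKY33, AT1G30740 and the markers named were added after their values were seen. So were the damage and pattern genes outside the 4 with the smallest p. The members and lists were chosen with earlier results of these data known.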

Additional observations from a re-analysis of the deposited data

How the results depend on the processing

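For single genes and for the members' median, under up to 13 alternative settings each, 108 values kept direction and side of the threshold or moved by less than the spread. In 15 more the direction was kept and the threshold was passed where the reported fit did not pass it, and 6 values of the median moved beyond the spread. The log2 fold change of AT4G20860 changed sign without RGF1 replicate 2, to -0.66, and reached 0.96 without RGF1 replicate 1. The cause was not tested.

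The count of members called, 0, became 4 with DESeq2, 2 with limma voom, 4 without the low-count filter and 2 with the replicate block. Leaving out 1 library gave 0 to 2, namely 2 without Mock replicate 1 (AT1G30730 and AT4G20830), 1 without Mock replicate 3 (AT1G30730) and 0 without any other. For the indole list, with 3 called, the count was 5 without the filter and 5 with the replicate block, and 1 to 3 when 1 library was left out; the 3 called without Mock replicate 1 were GSTF6, CYP71A12 and MYB51, not GGP1. For the damage and pattern list, with 0 called, it was 4 with DESeq2, 3 without the filter, 4 with the replicate block, and 0 to 1 when 1 library was left out. The block left the other family genes at 0 calls. The summed level after RGF1 over Mock ranged, with 1 library left out, from 9.49 to 13.0 for the AT1G26 cluster (a lower bound), from 3.92 to 9.65 for the AT1G30 cluster and from 2.56 to 4.32 for the AT4G20 genes. The shares of all tested genes called higher in these fits are given with the members' calls above. The cause of these shifts was not tested.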

Other observations

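Among the family genes with counts that were too low to be tested, 7 in number, AT2G34810 had 8, 17 and 2 counts in Mock replicates 1 to 3 and 115, 4 and 0 counts in RGF1 replicates 1 to 3, so that 1 RGF1 library held most of its reads. AT1G30760, known for oxidising monolignols like AT2G34790, had 4, 0 and 0 counts in Mock and 12, 19 and 0 after RGF1. Both were picked after their values were seen.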
